A study of Mus musculus with 12 samples.

Results

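The genes described are 9 transcription factors of the macrophage lineage, Spi1, Cebpa, Cebpb, Maf, Irf8, Runx1, Mitf, Tfec and Bhlhe41. They were chosen by name, and each matched 1 of the 55401 gene rows of the count table. RNA was sequenced in bulk from bone marrow derived macrophages of C57BL6 background mice, cells that grow out of marrow when it is cultured in macrophage colony-stimulating factor (M-CSF), here for 7 days. A young group of 6 libraries came from mice aged 8 weeks, and an old group of 6 came from mice aged 12 months. All 12 cultures received M-CSF, and none was labelled as treated otherwise. Replicates are named biological in the labels, but not tied to single animals, and p-values therefore weigh differences against library spread only, some of which may be technical.

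Macrophages arise when PU.1, the product of Spi1, opens myeloid enhancers together with C/EBP factors and RUNX1, and IRF8 joins PU.1 on DNA to favour monocyte fate over granulocyte fate. Later factors tune the mature cell. MAF limits self-renewal of macrophages, MITF and TFEC belong to a family that binds E-boxes in lysosomal and osteoclast genes, and BHLHE41 represses transcription at E-boxes and supports self-renewal of tissue macrophages. Because M-CSF drives both differentiation and division of these cultures, the levels of the factors were compared with the age of the mice and with the proliferation of each culture.

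Total assigned counts ranged from 22150081 to 25169045 in young and from 19345587 to 22356812 in old libraries. Each factor had between 407 and 15385 counts in a library. The cells carried macrophage transcripts throughout, with Lyz2 (lysozyme) at 20504 to 34972 counts per 1000000 assigned counts (CPM), Csf1r, the M-CSF receptor, at 2524 to 5371 CPM, Cd68 at 2389 to 3426 CPM and Adgre1, which encodes F4/80, at 745 to 1398 CPM. Proliferation was measured as the mean log2 CPM of 58 S phase and G2/M genes, none of them among the 9 factors, and is called the cell cycle level. The highest values, 6.20, 5.56 and 5.02, belonged to young replicate 6, old replicate 2 and old replicate 3, in that order, and the other 9 libraries had 3.58 to 4.65. The proliferation marker Mki67 was at 399.99 CPM, 282 CPM and 178 CPM in these 3 libraries and at 33.9 to 163 CPM in the others. Results are therefore given with and without the libraries that stand apart.

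Per kilobase of exon the factors differed widely in level. Spi1 led at 189 ± 21.4 CPM per kilobase (SD, n = 12), followed by Cebpa at 63.6 ± 5.07, Maf at 57.0 ± 10.6 and Irf8 at 48.1 ± 9.73 CPM per kilobase. A lower tier held Cebpb at 14.8 ± 2.18, Bhlhe41 at 14.3 ± 1.98, Mitf at 8.04 ± 1.23, Tfec at 7.39 ± 0.910 and Runx1 at 5.66 ± 0.746 CPM per kilobase. The ranges over libraries did not overlap at 3 steps of this order, from Spi1 to Cebpa, from Irf8 to Cebpb and from Bhlhe41 to Mitf. Other neighbours overlapped. Cebpa exceeded Maf in 9 of 12 libraries, Maf exceeded Irf8 in 11, Cebpb exceeded Bhlhe41 in 7, Mitf exceeded Tfec in 8 and Tfec exceeded Runx1 in 10.

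**Figure D1:**
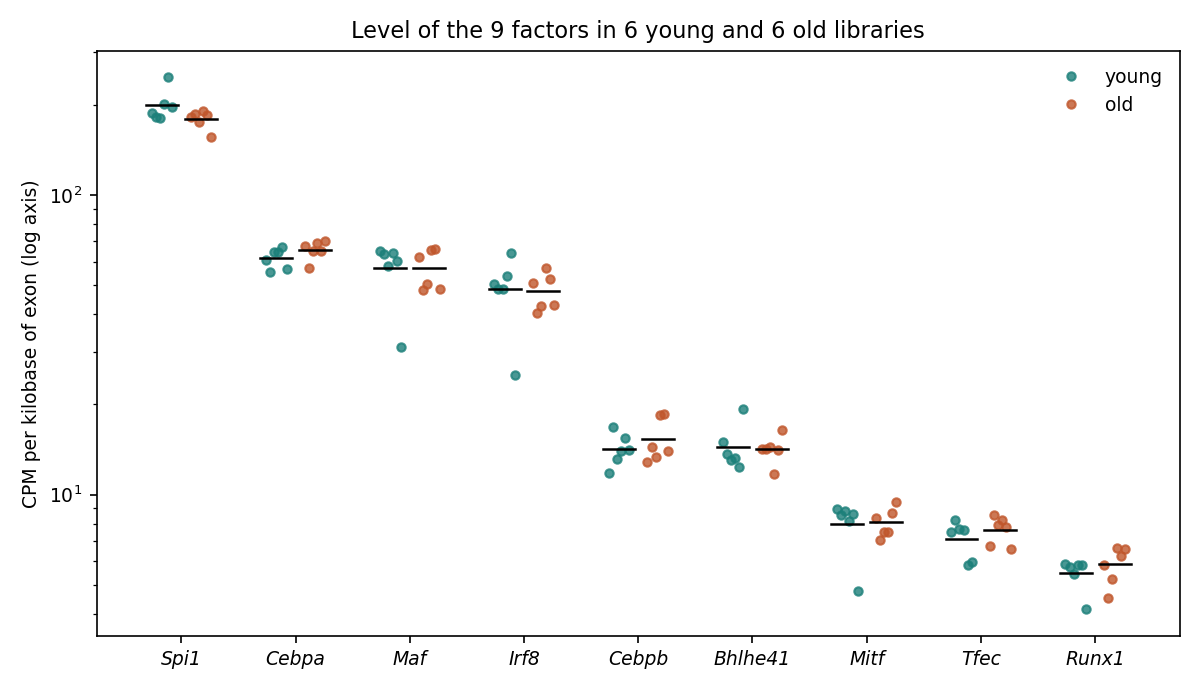
Level of the 9 factors on a log axis in CPM per kilobase of exon, with 1 point per library (young in green, old in orange) and a black line at the mean of each group of 6. Young and old points overlap for every factor, and the low young points of Maf, Irf8, Mitf and Runx1 all belong to young replicate 6.

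No factor passed a test of the difference between young and old macrophages. The count was 0 of 9 in edgeR's quasi-likelihood test at an adjusted p below 0.05, and 0 of 9 also had an unadjusted p below 0.05. DESeq2 and limma voom called 0 of 9 each, beside 0.0872% of genes (6 higher and 5 lower in old) and 0.0238% of genes. In the same edgeR test 0.0158% of all 12620 genes were called (all of them higher in old), and 5.47% had an unadjusted p below 0.05. The CPM ranges of the 2 age groups overlapped for all 9 factors, while 0.206% of genes had ranges that did not overlap. The median log2 fold change of old over young was 0.02 for the 9 factors and -0.01 for all genes. Standard errors reached 0.17 (Irf8), so small differences were not excluded. Without the 3 libraries of highest cell cycle level 1 of 9 factors had an unadjusted p below 0.05, beside 2302 of 12744 genes. It was Runx1, at 0.14 with a standard error of 0.06 (edgeR adjusted p = 0.24).

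Set against proliferation, Irf8, Maf, Mitf, Runx1 and Cebpa fell with the cell cycle level, so 5 of 9 passed, where 32.9% of all genes did. These 5 all passed in the lower direction, as did 15.1% of all genes, while 17.8% of genes and 0 factors passed in the higher direction. At an unadjusted p below 0.05 there were 6 of 9 factors and 42.9% of genes. Outside the 5 were 4 factors (Spi1, Cebpb, Tfec and Bhlhe41). The slope was fitted by edgeR with age in the model and is a log2 change per unit of cell cycle level, with a range of 2.62 units between libraries. The median slope was -0.10 for the 9 factors and 0.0046 for all genes. With library size alone as the scaling, 3276 genes rose and 1219 fell instead of 2246 and 1909. Under that scaling 4 factors fell, without Cebpa, and Bhlhe41 rose. Without young replicate 6 the count was 2 of 9, against 17.5% of genes. Without the 3 libraries of highest cell cycle level it was 0 of 9 in edgeR (0 of 9 also at an unadjusted p below 0.05), against 1.25% of genes. Standard errors were larger in those 9 libraries, and not all slopes were closer to 0. Irf8 was at -0.37 with a standard error of 0.18, Spi1 at -0.37 with 0.18, Cebpa at -0.26 with 0.13 and Tfec at 0.32 with 0.22 (edgeR adjusted p = 0.53, 0.52, 0.54 and 0.72). Young libraries alone gave 5 of 9 (4 fell and Bhlhe41 rose), against 22.1% of genes, and old libraries alone gave 1 of 9, against 20.1%. Among the young libraries only young replicate 6 had a cell cycle level above 4.65. With the replicate number as a block the count was 4 of 9, against 41.9% of genes.

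**Figure D2:**
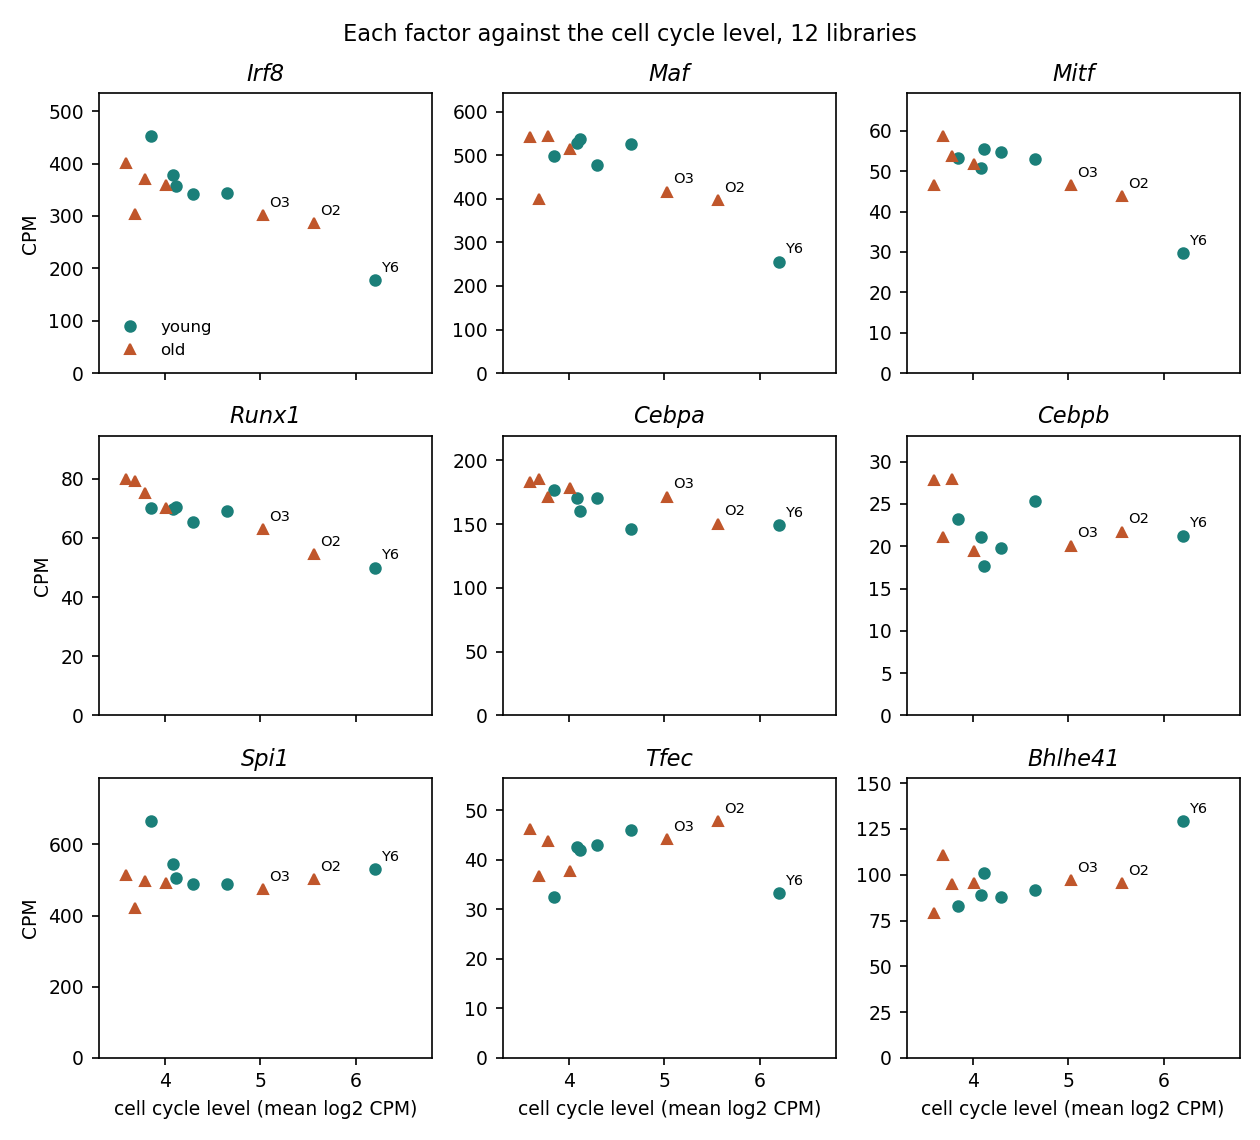
CPM of each factor against the cell cycle level (mean log2 CPM of 58 genes) in 6 young (circles) and 6 old (triangles) libraries, with Y6, O2 and O3 marking young replicate 6 and old replicates 2 and 3. Irf8 and Runx1 are lowest in the libraries of highest level, while Spi1 and Cebpb show no such order.

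Promoter sequences were read for 7 of the 9 factors from RefSeq (GRCm38.p6), all but Spi1 and Maf. Those of 4 factors are shown, 3 that fell with proliferation (Runx1, Mitf and Irf8) and Bhlhe41, whose slope was positive. Each is the 250 bases before an annotated start, on the strand of the gene. Capitals mark matches on either strand to CACGTG (the E-box), GAGGAAGT (a PU.1 core), TGTGGT (a RUNX core), TTGCGNAA (a C/EBP site), TGCTGAC (a MAF core) or a composite element of ETS and IRF factors. The windows are chr16:92826075-92826324 on the minus strand for Runx1, chr6:97806808-97807057 on the plus strand for Mitf, chr8:120736108-120736357 on the plus strand for Irf8 and chr6:145865421-145865670 on the minus strand for Bhlhe41. The Ensembl gene models used for counting start further upstream and take in 75 bases of the Runx1, 6 of the Mitf and 138 of the Bhlhe41 window.
Runx1: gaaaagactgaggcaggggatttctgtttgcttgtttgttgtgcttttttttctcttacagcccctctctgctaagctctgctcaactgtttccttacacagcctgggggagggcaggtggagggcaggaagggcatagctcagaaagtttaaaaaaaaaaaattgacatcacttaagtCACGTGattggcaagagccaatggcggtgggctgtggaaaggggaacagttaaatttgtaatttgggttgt
Mitf: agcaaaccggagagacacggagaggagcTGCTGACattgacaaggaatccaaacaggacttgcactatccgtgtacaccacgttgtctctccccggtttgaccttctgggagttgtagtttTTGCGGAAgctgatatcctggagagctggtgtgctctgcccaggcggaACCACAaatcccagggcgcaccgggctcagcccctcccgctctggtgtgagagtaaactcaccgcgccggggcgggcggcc
Irf8: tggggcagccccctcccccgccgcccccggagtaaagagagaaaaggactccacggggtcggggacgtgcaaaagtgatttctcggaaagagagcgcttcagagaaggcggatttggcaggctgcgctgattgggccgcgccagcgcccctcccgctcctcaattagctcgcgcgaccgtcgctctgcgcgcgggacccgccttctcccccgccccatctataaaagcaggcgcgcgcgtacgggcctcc
Bhlhe41: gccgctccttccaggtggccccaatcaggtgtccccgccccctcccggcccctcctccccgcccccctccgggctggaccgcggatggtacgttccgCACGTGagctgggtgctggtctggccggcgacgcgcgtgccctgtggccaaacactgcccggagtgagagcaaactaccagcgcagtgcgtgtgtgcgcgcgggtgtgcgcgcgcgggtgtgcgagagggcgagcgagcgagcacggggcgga
The Runx1 window, at the more distal of its 2 listed starts, holds 1 E-box, which begins 71 bases before the start. The Bhlhe41 window holds 1 E-box, 153 bases before the start, and 6.02% of 32851 windows of this length hold one. The Mitf window, at the most distal of 3 listed starts, holds a C/EBP match 129 bases, a MAF core 222 bases and a RUNX core 81 bases before the start. Such matches occur in 0.670%, 3.81% and 14.05% of windows. The PU.1 core occurs in 2.44% and the ETS and IRF composite element in 2.30% of windows, and neither string was matched in these 4. The Irf8 window holds none of the 6 motifs. A match is a string of letters and not a measured binding site.

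Spi1 (ENSMUSG00000002111, chromosome 2, 91082390 to 91115756, plus strand) encodes PU.1, the ETS factor at the head of the myeloid programme. In young libraries its lowest, median and highest levels were 487, 517 and 666 CPM, and in old libraries 421, 494 and 515 CPM. Every old library lay below the young median, and the ranges still overlapped. The means were 537 ± 67.1 and 483 ± 33.4 CPM (SD, n = 6 each), a log2 fold change of -0.15 with a standard error of 0.08 and an edgeR adjusted p of 0.77. This was the lowest age p of the 9 factors and ranked 1422nd among all genes. Young replicate 5 held the highest value and old replicate 6 the lowest. The slope on the cell cycle level was -0.02 with a standard error of 0.05 (edgeR adjusted p = 0.77), and young replicate 6, the most proliferative library, held 530 CPM.

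Cebpa (ENSMUSG00000034957, chromosome 7, 35119293 to 35121928, plus strand) encodes C/EBP alpha, which commits progenitors to the granulocyte and monocyte lineages. It was the steadiest factor, with a coefficient of variation of 7.97% over 12 libraries. Young libraries held 146, 165 and 177 CPM and old libraries 150, 175 and 186 CPM (lowest, median, highest), and 5 of 6 old libraries lay above the young median. Its age difference was 0.10 with a standard error of 0.07 on the log2 scale (edgeR adjusted p = 0.77). It fell with the cell cycle level by 0.10 per unit with a standard error of 0.03 (edgeR adjusted p = 0.032). That call was lost in 11 of 28 alternatives, among them leaving out young replicate 6 (0.053), old replicate 2 (0.15), young replicate 4 (0.054) or old replicate 4 (0.056). The slope itself stayed negative in every alternative.

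Cebpb (ENSMUSG00000056501, chromosome 2, 167688915 to 167690418, plus strand) encodes C/EBP beta, which serves inflammatory gene expression in macrophages. Young libraries held 17.7, 21.1 and 25.3 CPM and old libraries 19.4, 21.4 and 28 CPM. The highest values were in old replicates 4 and 5, and the groups overlapped. The age difference was 0.11 with a standard error of 0.12 (edgeR adjusted p = 0.83), and the slope was -0.06 with a standard error of 0.07 (edgeR adjusted p = 0.57). The annotation places exons of Tmem189 over 20.7% of its exonic bases, so reads there were not assigned to it and its level is uncertain.

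Runx1 (ENSMUSG00000022952, chromosome 16, 92601466 to 92826149, minus strand) encodes the DNA-binding subunit of core binding factor, which is needed to make blood stem cells and primes the Spi1 locus. Young libraries held 49.9, 69.5 and 70.4 CPM and old libraries 54.5, 72.7 and 80.0 CPM. The 3 most proliferative libraries held the 3 lowest values, 49.9 CPM (young replicate 6), 54.5 CPM (old replicate 2) and 62.9 CPM (old replicate 3). The same was true of Irf8 and Mitf, so for 3 of 9 factors, and of 5.52% of all genes. For Mitf the margin was narrow, 46.5 CPM in old replicate 3 against 46.6 CPM in old replicate 4. For Irf8 it was 302 CPM in old replicate 3 against 304 CPM in old replicate 6. Both of these other libraries had a low cell cycle level (3.58 and 3.69). Runx1 fell by 0.24 per unit with a standard error of 0.03 (edgeR adjusted p = 7.9e-05), the lowest p of the 9 factors. Its call held in 27 of 28 alternatives, with young libraries alone (slope -0.22, edgeR adjusted p = 0.024), with old libraries alone (-0.26, 0.0033) and without young replicate 6 (-0.23, 0.0024). Without the 3 most proliferative libraries the slope was -0.13 with an edgeR adjusted p of 0.84. The age difference was 0.10 with a standard error of 0.11 (edgeR adjusted p = 0.83).

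Irf8 (ENSMUSG00000041515, chromosome 8, 120736358 to 120756694, plus strand) encodes the interferon regulatory factor that pairs with PU.1. Young libraries held 177, 350 and 452 CPM and old libraries 286, 331 and 402 CPM, a 2.56-fold span from young replicate 6 to young replicate 5. Old replicates 2 and 3, at 286 and 302 CPM, were the next lowest after young replicate 6. Irf8 had the steepest slope of the 9 factors, and it fell by 0.36 per unit with a standard error of 0.07 (edgeR adjusted p = 6.9e-04), which is -0.93 over the whole range. Its call held without young replicate 6 (-0.21, edgeR adjusted p = 0.030), while old libraries alone gave -0.19 (0.063). Young libraries alone gave -0.54 (edgeR adjusted p = 2.3e-04). In that fit young replicate 6 had a cell cycle level of 6.20 and the other young libraries 4.65 or less. The age difference was -0.02 with a standard error of 0.17 (edgeR adjusted p = 0.98).

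Maf (ENSMUSG00000055435, chromosome 8, 115682942 to 115707794, minus strand) encodes c-Maf, a basic leucine zipper factor of resident macrophages. Young libraries held 255, 512 and 536 CPM and old libraries 397, 465 and 543 CPM. Young replicate 6 stood alone at 255 CPM, and old replicates 2, 6 and 3 followed at 397, 399 and 416 CPM. Maf fell by 0.31 per unit with a standard error of 0.07 (edgeR adjusted p = 0.0030). Without young replicate 6 the slope was -0.16 with an edgeR adjusted p of 0.13, and without the 3 most proliferative libraries it was 0.06 with an edgeR adjusted p of 0.97. The age difference was -0.0042 with a standard error of 0.16 (edgeR adjusted p = 0.99).

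Mitf (ENSMUSG00000035158, chromosome 6, 97807052 to 98021349, plus strand) and Tfec (ENSMUSG00000029553, chromosome 6, 16833373 to 16898441, minus strand) encode related basic helix-loop-helix leucine zipper proteins, and Tfec is largely restricted to macrophages. Mitf was at 29.6, 53.1 and 55.6 CPM in young and 43.8, 49.1 and 58.6 CPM in old libraries, and Tfec was at 32.5, 42.3 and 46.1 CPM in young and 36.7, 44.0 and 47.9 CPM in old libraries. In young replicate 6 both were low, with Mitf at its lowest value, 29.6 CPM, and Tfec at 33.2 CPM, next to its lowest. They parted in old replicate 2, where Mitf was at 43.8 CPM, its next lowest value, and Tfec at its highest, 47.9 CPM. In old replicate 3 they were at 46.5 CPM and 44.2 CPM. Mitf fell by 0.26 per unit with a standard error of 0.06 (edgeR adjusted p = 0.0030), and the slope of Tfec was 0.0036 with a standard error of 0.07 (edgeR adjusted p = 0.97). The difference between these slopes was not tested. Without young replicate 6 the slope of Mitf was -0.12 (edgeR adjusted p = 0.16) and that of Tfec 0.14 (0.22). The age differences were 0.02 with a standard error of 0.13 for Mitf and 0.10 with a standard error of 0.10 for Tfec (edgeR adjusted p = 0.97 and 0.82). Isoforms of Mitf, which start at several promoters, were not resolved by counts per gene.

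Bhlhe41 (ENSMUSG00000030256, chromosome 6, 145858243 to 145865558, minus strand) encodes the E-box repressor also called DEC2. It was at 83.0, 90.4 and 129 CPM in young and 78.9, 95.4 and 111 CPM in old libraries. Its highest value was in young replicate 6, where Maf, Irf8, Mitf and Runx1 had their lowest. Old replicates 2 and 3 were at 95.3 and 97.0 CPM, inside the range of the other libraries. The slope was 0.14 with a standard error of 0.05 and missed the threshold (edgeR adjusted p = 0.058). It was 0.03 without young replicate 6 (edgeR adjusted p = 0.80), 0.24 with young libraries alone (0.016) and 0.02 with old libraries alone (0.89). It passed without old replicate 6 (0.17, edgeR adjusted p = 0.0074) and without old replicate 2 (0.19, 0.031). The age difference was -0.02 with a standard error of 0.11 (edgeR adjusted p = 0.96). Exons of Gm43909 cover 19% of its exonic bases, so its level is uncertain.

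**Figure D3:**
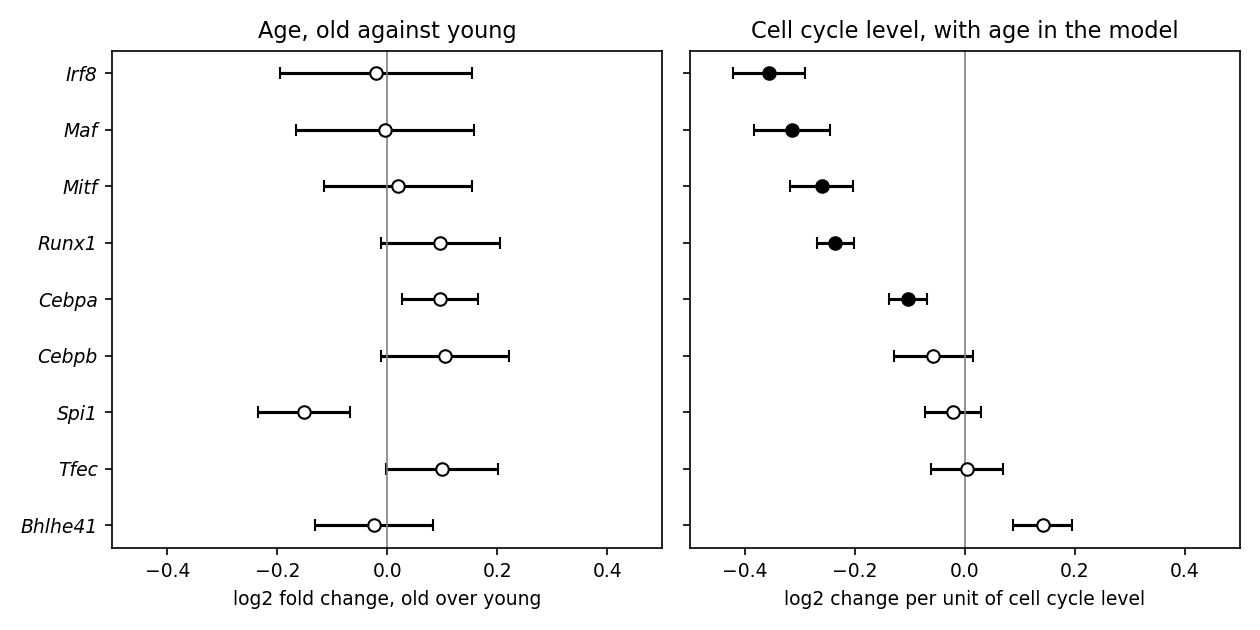
Estimates for the 9 factors, with the log2 fold change of old over young on the left and the log2 change per unit of cell cycle level on the right. Points are edgeR estimates, bars are 1 standard error, and filled points passed an adjusted p of 0.05. No age estimate is filled, and the 5 filled slopes are those of Irf8, Maf, Mitf, Runx1 and Cebpa.

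Whether proliferation relates to the factors in the same way at both ages was tested as the difference of the slopes. None of the 9 factors passed (edgeR, 0 of 9, with 0 of 12620 genes passing, and limma voom 0 of 9). In limma voom 4 of 9 factors and 1752 of 12620 genes had an unadjusted p below 0.05. In edgeR there were 4 of 9 factors, and 13.4% of all genes, at an unadjusted p below 0.05. They were Irf8, at 0.34 higher in old libraries with a standard error of 0.09 (edgeR adjusted p = 0.23), Mitf (0.24, 0.32), Maf (0.27, 0.34) and Bhlhe41 (-0.23, 0.34). Without young replicate 6 the 4 became 1, beside 1585 of 12704 genes, and without old replicate 2 also 1, beside 810 of 12737. It was 2 without old replicate 3 (1239 of 12727 genes) and without old replicate 6 (1368 of 12759). It was 5 without young replicate 5 (2019 of 12736 genes). With the replicate number as a block it was 1, with 551 genes at an unadjusted p below 0.05 in place of 1692. Young replicate 6 was the only young library with a cell cycle level above 4.65.

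**Figure D4:**
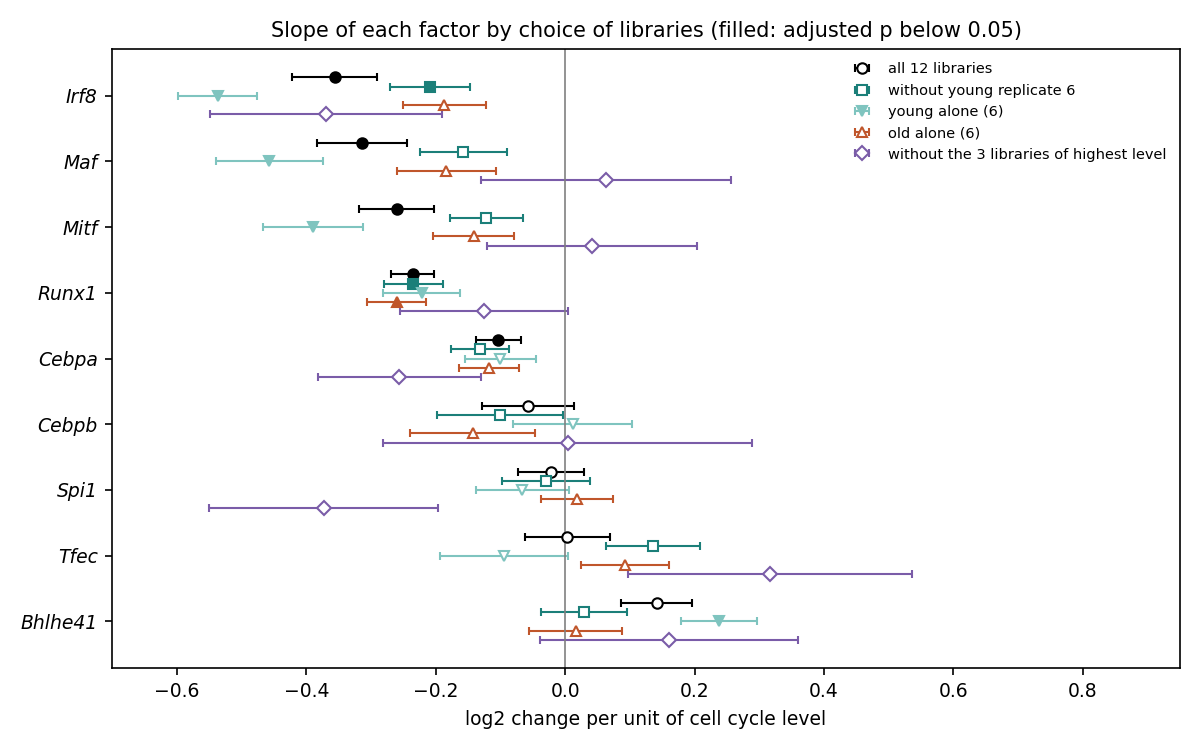
Slope of each factor on the cell cycle level (log2 change per unit, bars of 1 standard error) by the libraries used, with filled symbols for an edgeR adjusted p below 0.05. Runx1 keeps a slope from -0.26 to -0.22 in the first 4 choices, whereas Irf8, Maf and Mitf are steepest in young libraries alone and are closer to 0 without young replicate 6.

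Relatives of the factors were measured in the same way. Of 19 tested paralogues 11 fell with the cell cycle level and 1 rose, beside 15.1% and 17.8% of all genes. Irf2 (slope -0.28, edgeR adjusted p = 1.1e-04), Irf9 (-0.22, 2.1e-04), Mafk (-0.28, 3.4e-04) and Irf1 (-0.47, 6.6e-04) had the lowest p-values. Tfe3 (-0.14, edgeR adjusted p = 0.0043) and Tfeb (-0.18, 0.0023), the relatives of Mitf, also fell. Runx3 was the member that rose (0.82, edgeR adjusted p = 0.018), at 0.655 to 6.55 CPM. Bhlhe40 did not pass, at a slope of 0.33 with a standard error of 0.19 (edgeR adjusted p = 0.20). Without young replicate 6 the count falling was 7 of 19, with 0 rising, where 1028 of 12704 genes fell and 1193 rose. Without the 3 most proliferative libraries 0 paralogues fell, where 74 of 12744 genes did.

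Of 17 tested partners and co-regulators 9 fell and 0 rose. Ikzf1, which encodes the zinc finger factor Ikaros, had a slope of -0.24 (edgeR adjusted p = 9.4e-05), and the acetyltransferase gene Ep300 one of -0.31 (6.0e-04). Batf3, whose product pairs with IRF8, had one of -0.54 (6.1e-04), and the ETS repressor gene Etv6 one of -0.18 (0.0036). Cbfb, the obligate partner of RUNX1, did not pass, at 0.09 with a standard error of 0.06 (edgeR adjusted p = 0.28). Without old replicate 2 the count falling was 5 of 17, where 1460 of 12737 genes fell. Without young replicate 6 it was 6, where 1028 of 12704 genes fell. Leaving out the 3 most proliferative libraries gave 1, where 74 of 12744 genes fell. Of 17 tested other myeloid transcription factors 9 fell and 2 rose. Nr4a1, a nuclear receptor of patrolling monocytes, fell (-0.81, edgeR adjusted p = 5.1e-06), as did Egr1 (-0.64, 1.1e-04) and Tcf4 (-0.43, 2.6e-04). Id3, an inhibitor of E proteins, rose (1.44, 7.2e-05), as did Klf4 (0.42, 0.0029). Without the 3 most proliferative libraries 0 fell and 0 rose. The counts with every library kept stand beside 15.1% of all genes falling and 17.8% rising.

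Lists of genes known as targets of the factors were measured as well, and some genes stand in more than 1 list. Of 11 tested MAF targets 9 fell with the cell cycle level (median slope -0.48), among them the efferocytosis receptor gene Mertk (-0.48, edgeR adjusted p = 3.0e-04), F13a1 (-1.53, 0.0018) and the complement genes C1qc (-0.47, 0.0024) and C1qb (-0.54, 0.0028). Of 14 PU.1 targets 8 fell (median -0.21), led by Csf3r (-0.70, edgeR adjusted p = 1.4e-06), Cybb (-0.46, 6.2e-06), Mpeg1 (-0.26, 8.2e-05) and Fcgr1 (-0.97, 3.9e-04). Of 12 IRF8 targets 6 fell and Klf4 rose (median -0.18), with Cybb first and then Gbp2 (-1.21, 1.2e-04) and Irf1. Of 7 C/EBP targets 4 fell (median -0.28), which were Csf3r, Il1b (-1.39, edgeR adjusted p = 6.3e-05), Lyz2 (-0.24, 0.0018) and Mrc1 (-0.28, 0.018). Of 12 MITF and TFE targets 2 fell (median -0.02), the tetraspanin gene Cd63 (-0.13, 0.010) and the proton pump gene Atp6v0d2 (-0.57, 0.028). Of all genes 15.1% fell, and the MITF and TFE count is near that share. Without young replicate 6, 1028 of 12704 genes fell. The list counts falling were then 2 of 11, 5 of 14, 4 of 12, 2 of 7 and 0 of 12. Without old replicate 2 the MITF and TFE count was 1 of 12, where 1460 of 12737 genes fell. It was also 1 of 12 without old replicate 3, where 1744 of 12727 genes fell. Without the 3 most proliferative libraries all these counts were 0, where 74 of 12744 genes fell. In the age test 0 members of these lists passed in edgeR, also under each alternative for which they were counted.

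Of 8 tested M-CSF and related receptor and ligand genes 5 fell with the cell cycle level (median -0.28), Csf3r, Csf1 (-0.59, edgeR adjusted p = 1.3e-04), Csf1r (-0.32, 7.3e-04), Csf2rb2 (-0.26, 8.1e-04) and Csf2rb (-0.30, 0.0016). Of 10 macrophage markers 7 fell, Adgre1 first (-0.34, edgeR adjusted p = 5.8e-06), and 4 fell without young replicate 6. Beside these counts, 15.1% of all genes fell, and 1028 of 12704 did without young replicate 6. Cd68, Cd14 and Itgam did not pass (slopes -0.03, -0.18 and 0.0045, edgeR adjusted p = 0.73, 0.092 and 0.94). The summed level of the macrophage markers ran from 27561 to 46077 CPM in young and from 33148 to 44656 CPM in old libraries. It was lowest in young replicate 6, and most of it was Lyz2, at 20504 CPM in that library. In bulk RNA, fewer cells of a type and less RNA per cell cannot be told apart. Of 7 monocyte and progenitor markers 6 were tested and none was at 0 in all libraries. Cd34 and Spn rose (slopes 2.75 and 1.04, edgeR adjusted p = 2.4e-06 and 1.1e-04). Cd34, a marker of progenitors, was at 59.7 CPM (young replicate 6), 9.40 CPM (old replicate 2) and 8.27 CPM (old replicate 3), and at 0.181 to 2.96 CPM in the others. The summed level of this list was 75.1 to 188 CPM in young and 69.7 to 158 CPM in old libraries, highest in young replicate 6 and old replicate 2. Neutrophil markers, with 4 of 8 tested and 0 passing, summed to 9.42 to 32.3 CPM in young and 6.01 to 55.1 CPM in old libraries. Summed osteoclast markers ran from 15.8 to 24.7 CPM in young and from 15.3 to 31.3 CPM in old libraries, with Calcr at 0, and summed dendritic cell markers from 2.83 to 5.37 CPM and from 3.04 to 4.97 CPM. B and T cell markers summed to at most 0.314 CPM in young libraries and to at most 10.9 CPM in old ones, the latter in old replicate 6. The part of these cells in the slopes of the factors was not tested.

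The genes whose pattern over the 12 libraries was most like that of each factor were found by Pearson's r of log2 CPM among 9423 genes of at least 5 mean CPM. These values describe the libraries and have no test, since the points share the cell cycle level. Irf8 was most like Ikbke (r = 0.99, and 0.99 without the 3 most proliferative libraries), an interferon-pathway kinase gene, and Cyp27a1 (0.99 and 0.97). Maf was most like Arhgap19 (0.99 and 0.93) and Slc9a9 (0.99 and 0.92), and Runx1 was most like Nsd3 (0.98 and 0.92) and Gab2 (0.98 and 0.88). Mitf was most like Gpr155 (0.96 and 0.79) and Fbxo4 (0.95 and 0.88), and Cebpa was most like Irf5 (0.92 and 0.91) and N4bp1 (0.91 and 0.94). Spi1 was most like Tnfrsf1a (0.98 and 0.98), a receptor gene for tumour necrosis factor, and Ndufs3 (0.96 and 0.96). Bhlhe41 was most like Telo2 (0.95 and 0.96) and Cbwd1 (0.93 and 0.87), Tfec was most like Klhl21 (0.90 and 0.87) and Spata6 (0.89 and 0.90), and Cebpb was most like Orc3 (0.82 and 0.85) and Irf2bp2 (0.79 and 0.84). Among the 9 factors the closest pair over 12 libraries was Irf8 and Maf (0.93 and 0.56), with Maf at rank 153 of the genes most like Irf8. Spi1 and Irf8 had r = 0.31 over 12 libraries and 0.94 without the 3. Other pairs changed sign without the 3. Among them were Maf and Mitf (0.80 and -0.67), Irf8 and Mitf (0.80 and -0.59) and Mitf and Bhlhe41 (-0.53 and 0.80).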

How the data were processed

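According to the labels, a TruSeq RNA v2 kit turned TRIzol-extracted RNA into sequencing libraries. The authors deposited counts per gene, which are whole and not normalised, made with featureCounts 1.6.0 against Ensembl release 100 of GRCm38, per the file headers. The command sets no strand or overlap option, so strand was not used and reads shared by several genes were left out. Per the submitters' processing notes, STAR and FastQC were also used. Gene symbols were given to 55141 of 55401 IDs.

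Counts were tested here with edgeR 4.0.16 (R 4.3.3) by its quasi-likelihood test, fitted robustly after TMM scaling and filterByExpr, which kept 12620 genes and all 9 factors. P-values were two-sided and adjusted over all tested genes by the Benjamini-Hochberg method at 0.05. The age model held the group, the slope model the group and the cell cycle level (prior count 2 for log2 CPM), and the last model their interaction. CPM used TMM factors, and standard errors came from the F statistic. The scripts were tested on simulated data. Alternatives were 3 other scalings, 2 other filters, DESeq2 1.42.0, limma 3.58.1 voom, non-robust fitting, a replicate block, other cell cycle measures, single age groups and libraries left out. The counts of list members under these refits were added after seeing the data.

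The factors and the lists were chosen with earlier results of these data known. Named list genes were up to 4 past the threshold in order of p, else the most abundant member, and the 2 most alike genes per factor. Tfe3, Tfeb, Runx3, Bhlhe40, Cbfb, Klf4, Csf2rb, Cd14 and Itgam were named after their values were seen. Some list genes are not reported here.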

Additional observations from a re-analysis of the deposited data

Results flagged for a closer look

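A single library lay far from the other 5 of its group in 5 of the 20 sets of 6 values examined (9 factors and the cell cycle level, in each age group). Chance flags about 1 in 20 such groups when they are independent. The 20 sets reuse the same libraries, so the 5 flags cannot be weighed against that rate. Young replicate 6 accounts for 4 of these, with Maf at 255 CPM against 477 CPM or more in the other young libraries, Runx1 at 49.9 CPM against 65.2 CPM or more, Mitf at 29.6 CPM against 50.8 CPM or more, and a cell cycle level of 6.20 against 4.65 or less. The fifth is Spi1 in young replicate 5, at 666 CPM against 545 CPM or less.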

How the results depend on the processing

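The age count of 0 of 9 factors held in all 23 alternatives, and the count of 0 of 9 for a difference of slopes in all 15. The count of factors passing for the slope was 5, and 25 of 28 alternatives gave 4 to 6. The members were not always the same 5, since Cebpa was lost in 11 alternatives and Bhlhe41, which rose, passed in 5. In those 25 alternatives the share of all genes passing ran from 15.6% to 41.9%. The count of factors was 1 (Runx1) with old libraries alone and 0 without the 3 libraries of highest cell cycle level. With each library left out it was 2 to 6, the 2 (Irf8 and Runx1) from leaving out young replicate 6. Age differences that changed sign did not pass in any alternative. With library size alone Maf was at 0.016 and Irf8 at 0.0056, with limma voom at 0.023 and 0.022, and with the replicate block at 0.023 and 0.020. Adjusted for the cell cycle level, Mitf was at -0.025 and Bhlhe41 at 0.025, and without the 3 libraries Mitf was at -0.021, Tfec at -0.0046 and Bhlhe41 at 0.069. With each library left out, the age difference ran from -0.129 to 0.040 for Maf, -0.152 to 0.076 for Irf8, -0.090 to 0.057 for Mitf and -0.070 to 0.077 for Bhlhe41. Slopes that changed sign were those of Spi1 (library size alone 0.025, replicate block 0.090, S phase genes alone 0.0019, old libraries alone 0.019), Cebpb (young libraries alone 0.012, without the 3 libraries 0.0038), Maf and Mitf (without the 3 libraries 0.063 and 0.042) and Tfec (RLE scaling -0.0016, DESeq2 -0.0017, limma voom -5.6e-04, replicate block -0.026, cell cycle level alone -0.0047, S phase genes alone -0.080, young libraries alone -0.095). With each library left out the slope ran from -0.047 to 0.016 for Spi1 and -0.049 to 0.136 for Tfec. The causes were not tested. Same-numbered young and old libraries deviated together in 4 of 6 pairs (r over 0.1, lowest -0.17), and 2 of 6 correlated best with their own number, so the numbers were not taken to pair the samples. With the replicate block 0 factors passed for age and 4 for the slope, Cebpa being lost (edgeR adjusted p = 0.069). Each factor had at least 407 counts in a library, and the common biological coefficient of variation was 21.7%.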

Other observations

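Old replicate 6, a library of low cell cycle level (3.69), held an unusual set of values. Its summed B and T cell markers (10.9 CPM) and osteoclast markers (31.3 CPM) were the highest of the 12 libraries. Its summed neutrophil markers (6.01 CPM) were the lowest. Whether these sums relate to the factor levels was not tested. Mitf (58.6 CPM) and Cebpa (186 CPM) were at their highest of 12 libraries in old replicate 6 and Spi1 (421 CPM) at its lowest. Bhlhe41 was at 111 CPM, second only to young replicate 6, while Maf was at 399 CPM and Tfec at 36.7 CPM, their lowest old values but for the 397 CPM of Maf in old replicate 2. Young replicate 5 held the highest Spi1 (666 CPM) and Irf8 (452 CPM) and the lowest Tfec (32.5 CPM) of the 12 libraries. Spi1 and Irf8, whose products bind DNA together, were thus highest in the same library, whereas in young replicate 6 Irf8 was lowest at 177 CPM and Spi1 was at 530 CPM, above the young median. The spread of log2 CPM over the 12 libraries was largest for Irf8 (SD 0.34) and Maf (SD 0.32), above 85.9% and 83.6% of the 9423 genes of at least 5 mean CPM, and smallest for Cebpa (SD 0.12, above 17.4%) and Spi1 (SD 0.15, above 34.8%). These values were picked after they were seen and have no test.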
